A study of Mus musculus with 76 samples.

Results

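The cells described here are 46 of 76 single mouse iHPCs, those in which neither Hoxa9 nor Hoxa10 reached 1 TPM, the unit of transcript abundance scaled for gene length and library. These Hox-negative cells were chosen by their measured Hoxa9 and Hoxa10, and were then ranked by their measured Runx1 and divided at their median of 62.7 TPM into 23 Runx1-high and 23 Runx1-low cells. Per the labels, iHPCs are progenitors made from pluripotent stem cells in which Runx1, Hoxa9 and Hoxa10 can be induced together, and they engrafted C57BL/6 recipients. Every cell carried the same label, so Runx1-high, Runx1-low and Hox-positive are ranges of measured values and not treatments. The labels give no genotype of the stem cell line, inducing agent or age of a recipient. They tie no cell to a culture, animal or sort either, so all cells count as 1 sample. Cells were not used as replicates, no test was run, and every difference below is a description of these libraries.

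Runx1 is a DNA-binding transcription factor that acts as a heterodimer with Cbfb, and it is required for blood cells to emerge from endothelium in the embryo. In later haematopoiesis it acts in megakaryocytic, myeloid and lymphoid cells, where it can activate or repress its targets together with factors such as the Lmo2 complex, Sfpi1 (Spi1, PU.1), Gfi1 and Myb. Hoxa9 and Hoxa10 are homeodomain factors that sustain the self-renewal of haematopoietic progenitors and are switched off as these mature.

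In the Runx1-high cells Runx1 ran from 66.2 to 218 TPM with a median of 104 TPM. In the Runx1-low cells it ran from 0.304 to 59.3 TPM with a median of 42.3 TPM. The groups did not overlap because Runx1 defined them. The nearest cells on either side of the median were at 58.4 and 59.3 TPM in the low group and at 66.2 and 71.97 TPM in the high group. Runx1 was under 1 TPM in 3 Runx1-low cells and under 10 TPM in 6. The highest Hoxa9 value among Hox-negative cells was 0.861 TPM and the lowest above the limit 1.61 TPM. For Hoxa10 these values were 0.401 and 1.27 TPM. Hoxa9 was above 0 in 1 Runx1-high and 1 Runx1-low cell, and Hoxa10 in 2 and 1, so most Hox-negative cells were listed at 0 for both. A TPM of 0 in a single cell can be a failed capture. With 1 value per gene, an introduced copy of Runx1 or of a Hox gene cannot be told apart from the chromosomal one. The remaining 30 Hox-positive cells had higher Runx1, from 68.01 to 344 TPM with a median of 166 TPM.

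**Figure D1:**
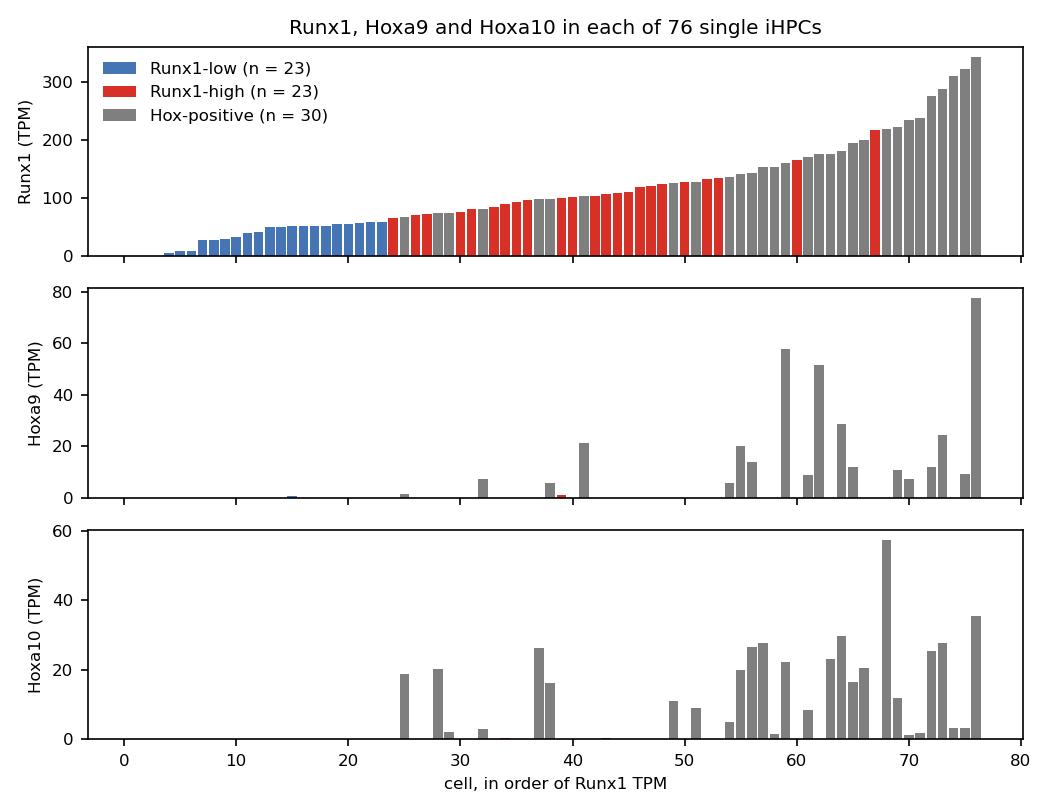
Each bar is 1 of 76 cells in order of Runx1, with Runx1, Hoxa9 and Hoxa10 in TPM in the upper, middle and lower panel. Blue marks 23 Runx1-low, red 23 Runx1-high and grey 30 Hox-positive cells; the grey cells spread over the range of the red cells and above it.

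The divided cells were alike in coverage and in the number of pan-haematopoietic genes carried. A median of 4269 genes reached 1 TPM in Runx1-high cells (range 3182 to 5821) and 4177 in Runx1-low cells (3061 to 5992), and the rho of Runx1 with this number over 46 cells was -0.03. Here and below, rho is Spearman's rank correlation, given as a description, since values of 1 cell share a library. Ribosomal-protein genes took a median of 8.43% and 8.26% of TPM. At 10 TPM a median of 11 of 12 pan-haematopoietic genes was carried in both groups. In level, 0 of these 12 were higher by 1 log2 unit in Runx1-high cells and 1 was lower. Stromal and pluripotency genes had a median of 0 members per cell at 10 TPM in both groups. The mature granulocyte genes S100a8, S100a9 and Camp reached 10 TPM in 0 of 46 cells each. With 3 cells taken as the upper limit for a count of 0, the share of such cells at 10 TPM could be up to 6.52%. This limit covers the counting of cells only and does not cover failed capture. Titles carry a letter and a number. Numbers 2 to 6 held 15 Runx1-high and 10 Runx1-low cells, numbers 7 to 11 held 8 and 13, letter A held 4 and 0, and letter H held 1 and 5. Differences within these ranges of titles are given below for the main genes, and where they turn the direction of another. For these, the cells of each range were divided again at the Runx1 median of that range, so a cell could change group. Numbers 2 to 6 were then compared as 12 Runx1-high and 13 Runx1-low cells.

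Of 6017 genes that reached 1 TPM in at least 12 of the 46 cells, 497 (8.26%) had a mean log2(TPM + 1) higher by 1 or more in Runx1-high cells. Another 682 (11.3%) were lower by as much, so 19.6% passed this limit in either direction. A difference of 1 on this scale is 2-fold for genes well expressed in every cell, and understates the fold of genes low in every cell. Where a gene is near 0 in some cells, the difference also follows the number of such cells. It can then exceed the fold of the medians. A rho with Runx1 of 0.3 or more was found for 183 genes (3.04%) and of -0.3 or less for 168 (2.79%). The median difference over all 6017 genes was -0.03, with 5th and 95th percentiles of -1.40 and 1.20. These shares are the background beside which the counts below are given. Since Runx1 itself divided the cells, nothing is read from them as support. The median over all genes lay near 0, while single genes spread widely.

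The promoters of 4 genes with large differences are shown because each holds TGTGGT, the core of the RUNX motif, on one strand within the 250 bases before the start site. Plscr1 and Wfdc17 were higher in Runx1-high cells, and Nkg7 and Lck were lower. Sequences are from RefSeq on GRCm38.p6, 5′ to 3′ on the gene's strand, with the motif or its reverse complement ACCACA in capitals.
Plscr1, chr9:92249944-92250193, plus strand: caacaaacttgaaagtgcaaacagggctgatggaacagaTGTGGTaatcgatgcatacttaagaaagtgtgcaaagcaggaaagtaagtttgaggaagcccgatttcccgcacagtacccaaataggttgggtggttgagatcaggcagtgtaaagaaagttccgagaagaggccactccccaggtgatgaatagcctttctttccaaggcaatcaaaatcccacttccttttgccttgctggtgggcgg
Wfdc17, chr11:83703806-83704055, plus strand: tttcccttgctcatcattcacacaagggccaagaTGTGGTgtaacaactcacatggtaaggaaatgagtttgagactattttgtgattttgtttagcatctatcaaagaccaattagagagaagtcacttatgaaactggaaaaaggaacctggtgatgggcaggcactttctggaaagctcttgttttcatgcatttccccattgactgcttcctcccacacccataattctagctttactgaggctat
Nkg7, chr7:43436888-43437137, plus strand: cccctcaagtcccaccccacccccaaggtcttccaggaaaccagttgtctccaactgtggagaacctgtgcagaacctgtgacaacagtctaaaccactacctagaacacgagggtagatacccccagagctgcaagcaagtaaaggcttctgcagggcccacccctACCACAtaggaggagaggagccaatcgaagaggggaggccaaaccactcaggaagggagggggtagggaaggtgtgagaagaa
Lck, chr4:129573642-129573891, minus strand: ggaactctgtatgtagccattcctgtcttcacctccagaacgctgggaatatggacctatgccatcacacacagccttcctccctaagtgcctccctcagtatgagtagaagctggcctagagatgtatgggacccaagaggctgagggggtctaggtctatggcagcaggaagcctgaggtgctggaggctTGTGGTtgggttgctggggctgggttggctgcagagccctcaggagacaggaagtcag

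The motif began 211 bases before the start site in Plscr1, 216 in Wfdc17, 83 in Nkg7 and 58 in Lck. TGTGGT on either strand was present in 16.8% of all 32851 promoter windows of 300 bases in the RefSeq table. Counted by gene, as in the groups below, it was present in 18.9% of 27025 genes. Among genes tested, 729 of 4853 with a window held it (15.02%), against 63 of 398 genes higher by 1 log2 unit (15.8%) and 79 of 560 lower (14.1%). It was held by 30 of 144 genes with a rho of 0.3 or more (20.8%) and by 25 of 142 with a rho of -0.3 or less (17.6%). The longer form TGTGGTTT, which contains the shorter, was in 1.78% of all windows and 2.11% of all genes. The shares among genes past 1 log2 unit thus lay near that of all tested genes, and those among genes past the rho limits lay above it by an amount that was not tested. A match describes the letters of the window and is not evidence of binding.

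Among regulators that work with Runx1 in blood emergence, Lmo2 was the member most in excess in Runx1-high cells. Lmo2 (chromosome 2, 103957903 to 103981878, GRCm38.p6) encodes the bridging protein of the Tal1, Lyl1, Ldb1 and Gata complex. It ran from 0 to 659 TPM with a median of 52.96 TPM in Runx1-high cells, and from 0 to 285 TPM with a median of 1.47 TPM in Runx1-low cells. It reached 10 TPM in 15 of 23 Runx1-high cells (65.2%, exact 95% interval 42.7 to 83.6%) and in 6 of 23 Runx1-low cells (26.1%, 10.2 to 48.4%). Intervals are Clopper-Pearson and cover the counting of cells only, and those of Lmo2 overlapped. The difference of means was 2.66 and the rho with Runx1 0.49. The groups overlapped in range and differed in how many cells carried Lmo2. Hox-positive cells, in which Runx1 was higher still, carried Lmo2 at 10 TPM in 25 of 30 cells with a median of 245 TPM.

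The Runx1 partner Cbfb went the other way. Cbfb (chromosome 8, 105170674 to 105217989), the subunit that raises the DNA affinity of Runx1, had a median of 0.949 TPM in Runx1-high cells (0 to 197 TPM) and of 76.3 TPM in Runx1-low cells (0 to 193 TPM). It reached 10 TPM in 9 and 16 cells, a difference of -1.82 with a rho of -0.20. Meis1, a homeodomain cofactor of Hox proteins, reached 10 TPM in 5 and 10 cells (difference -1.28), and the repressor Gfi1b in 6 and 9 (-1.01). Both turned within a range of title numbers, Meis1 to 0.25 in numbers 2 to 6 and Gfi1b to 0.91 in numbers 7 to 11; without cell G9 Gfi1b was at -0.76. Myb, a factor of proliferating progenitors, was higher, at 10 TPM in 19 and 13 cells (difference 1.21, but down to 0.27 under other settings). Sfpi1 was alike, with medians of 436 and 598 TPM and a difference of -0.05, as were Fli1 (0.33) and Etv6 (0.07). Of the 17 partners and emergence regulators tested, 2 were higher by 1 log2 unit and 3 lower, with a median of 0.07. Its members thus stood on both sides of 0.

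Of 12 tested genes reported elsewhere as targets of Runx1, 2 were on the higher side by any amount and 10 on the lower side, with a median of -0.29. Over all genes 48.4% were on the higher side. Past 1 log2 unit, 2 were higher and 3 lower. Ctsg (cathepsin G), a protease of primary granules, reached 10 TPM in 8 Runx1-high and 5 Runx1-low cells (difference 1.79), and its highest values were 5375 and 3086 TPM. Cdkn1a (p21), a cell cycle inhibitor, reached it in 14 and 20 cells (-1.36), and the surface receptor Cd244 in 7 and 12 (-1.08, and -0.90 without cell H5). Nfe2, a factor of megakaryocytes, was at 10 TPM in all 23 cells of each group. Ctsg differed by -0.22 within title letters A to D, and Cdkn1a by 0.15 in cells with Runx1 of at least 10 TPM. These sets were divided at their own Runx1 medians. The direction of both genes thus depended on the cells included and on the point of division.

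**Figure D2:**
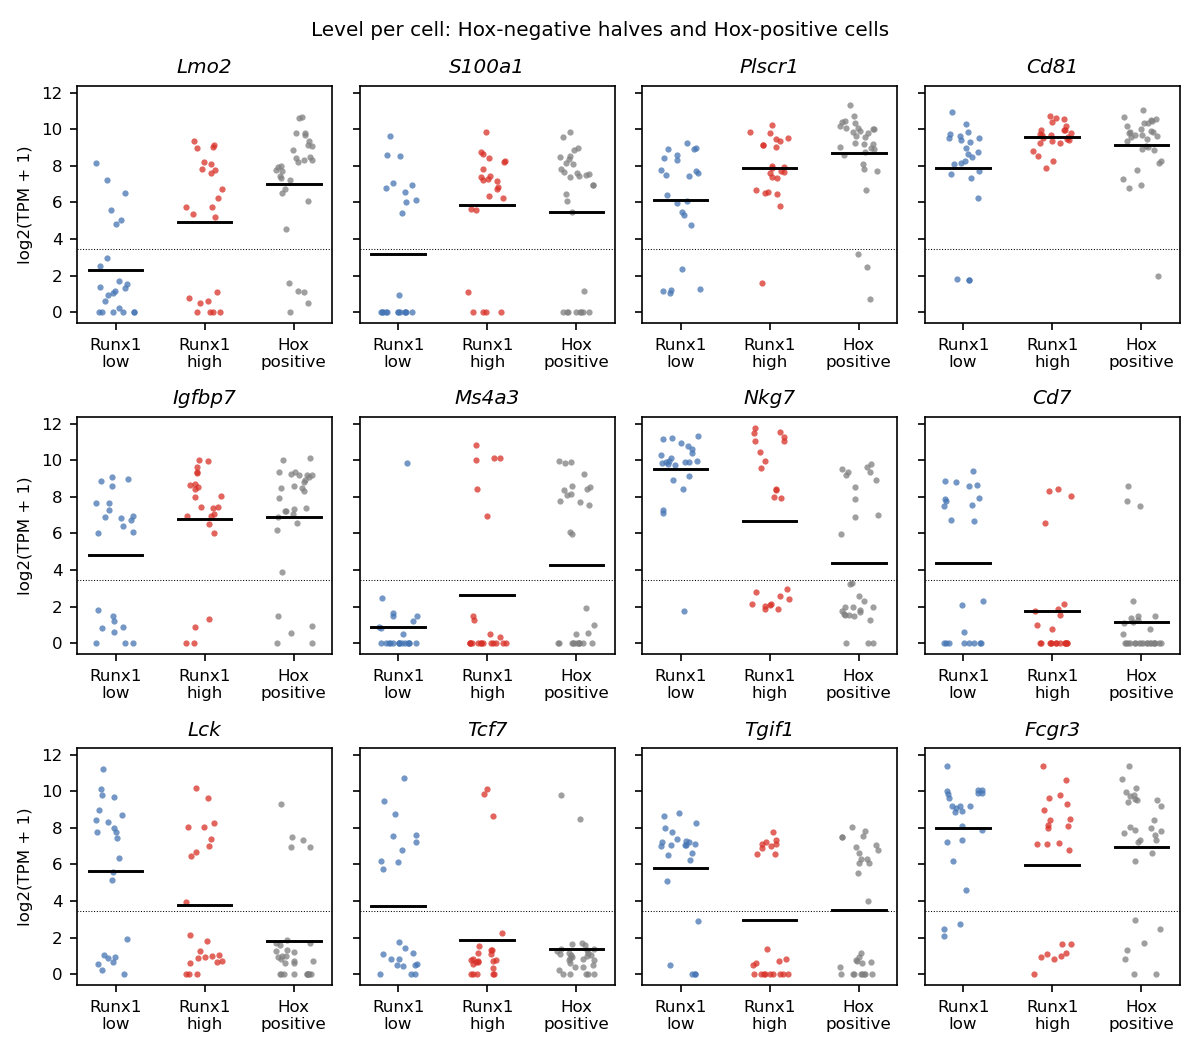
Each point is 1 cell, with its log2(TPM + 1), in 23 Runx1-low (blue), 23 Runx1-high (red) and 30 Hox-positive (grey) cells; bars are means and the dotted line is 10 TPM. Most genes split into cells well above the line and cells near 0, and the groups differ in how many cells lie above: for Lmo2, 6 of 23 Runx1-low and 15 of 23 Runx1-high cells.

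The genes chosen for the greatest excess in Runx1-high cells were mixed in function. S100a1 (chromosome 3, 90511034 to 90514330), a calcium-binding protein, had medians of 146 and 0 TPM, ranges of 0 to 905 and 0 to 787 TPM, and reached 10 TPM in 18 and 10 cells (difference 2.71, rho 0.43). H2-Ob (chromosome 17, 34238905 to 34245908), the beta chain of the class II chaperone H2-O, had medians of 65.3 and 0 TPM and reached 10 TPM in 13 and 4 cells (difference 2.92). Itgal (chromosome 7, 127296139 to 127335137), the alpha chain of the leukocyte integrin LFA-1, had a median of 20.8 TPM and a highest value of 123 TPM in Runx1-high cells. In Runx1-low cells its median was 0 and its highest value 63.5 TPM, and it reached 10 TPM in 12 cells against 1 (difference 2.55). For these genes the Runx1-low group was mostly at or near 0. For S100a1 some of its cells were nearly as high as the highest of the other group, while for Itgal its highest cell was at 63.5 TPM. The LFA-1 beta chain Itgb2 was at 10 TPM in 12 and 8 cells (difference 1.25), so both chains stood on the same side.

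Further genes on this side were Tmem219, a membrane protein (17 and 8 cells at 10 TPM, medians of 121 and 0 TPM), and Fam213a, a peroxiredoxin-like protein (20 and 14 cells, 2.70). Wfdc17, a secreted protein of the whey acidic protein family, was at 10 TPM in 14 and 7 cells, with medians of 66.3 and 5.41 TPM (2.70). The oxidoreductase gene Dhrs1 was carried by 16 and 7 cells (2.74), Mtcp1, a relative of the Tcl1 oncogene, by 16 and 7 (2.53), and Il12a, the p35 subunit of interleukin 12, by 11 and 4 (2.54). Elmo1, which activates Rac with Dock proteins in migrating and engulfing cells, had medians of 71.4 and 8.84 TPM and a rho of 0.49. Igfbp7, a secreted binding protein of insulin-like growth factors, had medians of 176 and 83.9 TPM and a rho of 0.48. No shared pathway is named for these genes, since they were ranked by the measured contrast itself.

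Some genes at 1 TPM or more in nearly every cell were higher too. Plscr1 (chromosome 9, 92250194 to 92272561), an interferon-inducible phospholipid scramblase, had medians of 239 and 170 TPM, ran from 2.08 to 1214 and from 1.09 to 600 TPM, and differed by 1.75. It reached 10 TPM in 22 Runx1-high and 18 Runx1-low cells, so cells with low values enter this difference of means. Cd81 (chromosome 7, 143052750 to 143067930), a tetraspanin, had medians of 829 and 398 TPM and differed by 1.69. All 23 Runx1-high cells were at or above 237 TPM for Cd81, while 3 Runx1-low cells were under 10 TPM. Within title numbers 7 to 11 the difference of Cd81 was -0.37. Myl6, a light chain of myosin, had medians of 1349 and 1120 TPM with a rho of 0.45, and Sh3bgrl3, a thioredoxin-fold protein, medians of 1145 and 911 TPM with a rho of 0.50. For the last pair the differences were only 0.49 and 0.32, so a rank relation of this size went with a small change in level.

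Lower in Runx1-high cells were Nkg7 and several genes of T lymphoid cells. Nkg7 (chromosome 7, 43437138 to 43438246), a membrane protein of cytotoxic and myeloid granules, ran from 2.60 to 3487 TPM with a median of 258 TPM in Runx1-high cells. In Runx1-low cells it ran from 2.34 to 2544 TPM with a median of 954 TPM. It reached 10 TPM in 13 of 23 Runx1-high cells (56.5%, exact interval 34.5 to 76.8%) and 22 of 23 Runx1-low cells (95.7%, 78.1 to 99.9%), a difference of -2.81 with a rho of -0.30. Nearly all Runx1-low cells carried Nkg7 at a high level, while Runx1-high cells divided into 13 carriers, some of them the highest of the 46, and 10 cells under 10 TPM.

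Cd7 (chromosome 11, 121036747 to 121039478), a surface protein of early T and NK progenitors, had a median of 0 TPM and a highest value of 338 TPM in Runx1-high cells. In Runx1-low cells its median was 102 TPM and its highest value 681 TPM, and it reached 10 TPM in 4 and 12 cells (difference -2.65). Tcf7, the Wnt-responsive factor of early T cells, was at 10 TPM in 3 and 10 cells (-1.82). Lck, the kinase of the T cell receptor complex, was at 10 TPM in 10 and 15 cells, with medians of 2.57 and 174 TPM (-1.86). Cells of both groups reached high values of all 3 genes, and the Runx1-low group held more such cells. The NK and innate lymphoid list, which holds Nkg7, had 3 tested members, with a median of 0.05. Its other members differed little, Id2 by 0.05 and Gzma by 0.14. The T lymphoid list had 6 tested members, of which 0 were higher by 1 log2 unit and 3 lower, with a median of -1.30. The defining T cell genes Cd3e, Bcl11b and Cd5 reached 10 TPM in 0 of 46 Hox-negative cells each, with the same limit of 6.52%. Per cell, 0 to 7 of the 14 members reached 10 TPM in either group, with a median of 1 in Runx1-high and 3 in Runx1-low cells. The summed TPM of the list ran from 11.5 to 4090 (median 333) and from 6.44 to 9521 (median 857).

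These lymphoid genes were carried by overlapping cells. All 13 Hox-negative cells with Tcf7 at 10 TPM also carried Lck, and 8 of the 13 carried Cd7. Of the other 33 cells, 12 carried Lck and 8 carried Cd7. Lmo2 was found in 2 of these 13 cells and in 19 of the other 33. Of 16 cells with Cd7, 4 carried Lmo2, while of the cells without Cd7, 17 carried Lmo2 and 13 did not. With the 13 Tcf7 cells left out, the median of the T lymphoid list was 0.02, Lck differed by -0.14 and Tcf7 by 0.04. Cd7 (-2.64), Nkg7 (-2.71) and Lmo2 (2.78) differed as much as before. Leaving out these cells removes most of Tcf7 by construction. This exclusion was chosen after the values were seen.

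Title ranges, each divided at its own Runx1 median, were compared for the main genes. Within numbers 2 to 6 and 7 to 11, Lmo2 differed by 2.64 and 3.56, Nkg7 by -2.54 and -1.77, and Cd7 by -3.76 and -2.30. Within letters A to D and E to H, Lmo2 differed by 1.23 and 4.46, Nkg7 by -1.59 and -4.07, and Cd7 by -1.35 and -4.54. S100a1 ran from 1.76 to 4.45 over the 4 ranges and Plscr1 from 0.81 to 3.40. These 5 genes kept their direction in each range, and their differences were larger in letters E to H than in A to D. All 5 were named for the size of their difference, and the ranges are parts of the same cells. Their kept direction is therefore not an independent check. Tgif1 and Cd81, named by the same rules, turned, Tgif1 to 0.11 in numbers 2 to 6 and Cd81 to -0.37 in 7 to 11. Tcf7 did not keep its direction either, with 0.14 in letters A to D and -3.23 in E to H.

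Granulocyte and monocyte genes split between the groups. Of 12 tested, 3 were higher by 1 log2 unit (Ctsg, Ms4a3 and Cd33) and 2 lower (Nkg7 and Fcgr3), with a median of -0.05. Ms4a3, a membrane protein of granulocyte and monocyte progenitors, was at 10 TPM in 6 and 1 cells, with highest values of 1812 and 902 TPM (difference 1.72). All 7 of these cells also carried Lmo2, and 5 carried Ctsg. Of the Hox-negative cells without Ms4a3, 14 carried Lmo2 and 25 did not, and 8 carried Ctsg and 31 did not. The sialic acid receptor Cd33 was in 9 Runx1-high and 4 Runx1-low cells (1.28, but near 0 within title numbers 7 to 11). Fcgr3, a low-affinity receptor for immunoglobulin G, had medians of 143 and 543 TPM and was at 10 TPM in 15 and 20 cells (-2.03). Mpo was in 12 cells of each group and the protease Prtn3 in 18 and 16, so cells of both groups carried primary granule genes.

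Other genes lower in Runx1-high cells included Tgif1 (chromosome 17, 70844205 to 70853532), a homeodomain repressor in TGF-beta signalling. Its medians were 0.641 and 130 TPM, its highest values 219 and 448 TPM, and it was at 10 TPM in 9 and 18 cells (difference -2.87). Within title numbers 2 to 6 its difference was 0.11, and within 7 to 11 -2.91. Ptprc (CD45), the leukocyte phosphatase, had medians of 50.3 and 92.8 TPM and was at 10 TPM in 16 and 22 cells (-1.42). Cd63, a tetraspanin of late endosomes, had medians of 159 and 791 TPM (-2.29, but 0.61 within letters A to D), and Bst2 (tetherin) of 135 and 234 TPM (-1.56). Tmx2, a thioredoxin-related membrane protein, had the lowest rho with Runx1 of the genes named, -0.54. It ran from 0.429 to 685 TPM in Runx1-high and from 27.3 to 731 TPM in Runx1-low cells. The glucose transporter gene Slc2a3 was at 10 TPM in 7 and 14 cells (-2.28) and Asns, which makes asparagine, in 6 and 11 (-1.87). Dnajc30, Oaf, St7 and Uba1 were each at 10 TPM in 6 Runx1-high cells and in 14 to 16 Runx1-low cells, with differences of -2.63 to -2.57.

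In the Bcl2 family, the inhibitor of death Bcl2 and the BH3-only death gene Pmaip1 (Noxa) were both lower. Bcl2 was at 10 TPM in 3 Runx1-high and 10 Runx1-low cells (difference -1.40), and Pmaip1 in 4 and 13 (-2.51). Of 12 members tested, these 2 were lower by 1 log2 unit and 1 was higher, with a median of -0.24. The higher one was Mcl1, by 1.05. It went down to 0.41 under other settings, and to 0.86 when 1 cell was left out. Of 14 surface molecules of stem and progenitor cells, 2 were higher by 1 log2 unit (Ly6a, also called Sca-1, by 1.14 and Gpr56 by 1.20) and 0 lower, with a median of 0.48. Under other settings Ly6a went down to 0.13 and Gpr56 to 0.35, and leaving out 1 cell took them under 1 log2 unit (Ly6a to 0.91 without cell G10, Gpr56 to 0.97 without cell B10). Cytokine receptors and their signalling had 2 higher and 2 lower of 19 (median 0.05), and integrins and homing molecules 2 and 1 of 12 (-0.18). Respiratory chain genes had 0 higher and 1 lower of 24 (0.00), and 14 housekeeping genes had 0 and 1 (-0.03).

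**Figure D3:**
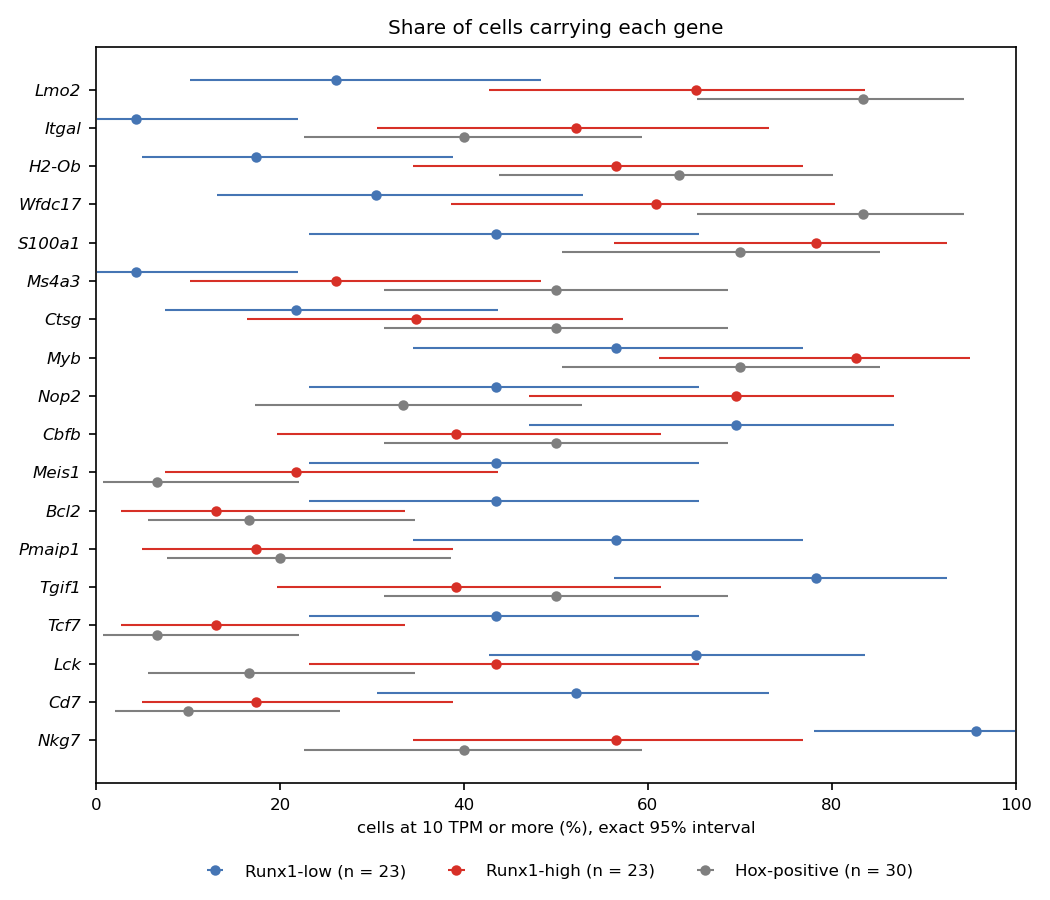
Share of cells (%) at 10 TPM or more for 18 genes, with exact 95% intervals that cover counting only, in 23 Runx1-low (blue), 23 Runx1-high (red) and 30 Hox-positive (grey) cells. Lmo2 is at 26.1%, 65.2% and 83.3% in the groups in this order, and Nkg7 at 95.7% and 56.5% in Runx1-low and Runx1-high cells.

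The same contrast was drawn in the 30 Hox-positive cells, which the division of the Hox-negative cells did not use, at their own Runx1 median. Their Runx1-low cells ran from 68.01 to 161 TPM of Runx1 and their Runx1-high cells from 171 to 344 TPM. This contrast thus covers a higher range of Runx1 than that in Hox-negative cells. There 701 of the 6017 genes (11.7%) were higher by 1 log2 unit and 1235 (20.5%) lower, and the median over all genes was -0.18. Of the 497 genes higher in Hox-negative cells, 222 (44.7%) had a positive difference in Hox-positive cells, against 42.4% of all genes. Of the 682 lower genes, 386 (56.6%) had a negative one, against 57.6% of all. The genes past 1 log2 unit thus had nearly the same mix of signs there as all genes. Of the 183 with a rho of 0.3 or more, 21 (11.5%) also reached it in Hox-positive cells, against 5.82% of all genes, and of the 168 at -0.3 or less 18 (10.7%), against 7.94%.

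The named genes that follow are examples, and signs over all named genes were not counted. For all genes past 1 log2 unit the mix of signs was near that of all genes, as given above. S100a1 (1.98 in Hox-positive cells), H2-Ob (2.26), Wfdc17 (1.65), Plscr1 (1.95), Cd81 (1.499) and Lmo2 (1.41) were higher with Runx1 in both sets. Plscr1 had a rho of 0.47 in Hox-positive cells and Cd81 of 0.43. Nkg7 (-3.52, rho -0.41) and Tgif1 (-2.92, rho -0.41) were lower in both. Plac8, a small cysteine-rich protein of myeloid progenitors that was chosen after its values were seen, was lower in both, by -1.39 in Hox-negative cells (0.18 within letters A to D) and -3.01 in Hox-positive cells. Other genes differed little among Hox-positive cells: Itgal by 0.04, Cd7 by 0.11 and Cbfb by -0.03. St7 had the opposite sign, with 1.78 against -2.58, as had Myb with -2.98 against 1.21. Whether the 2 sets differ in any of these genes was not tested, since each is a division of cells from 1 sample.

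**Figure D4:**
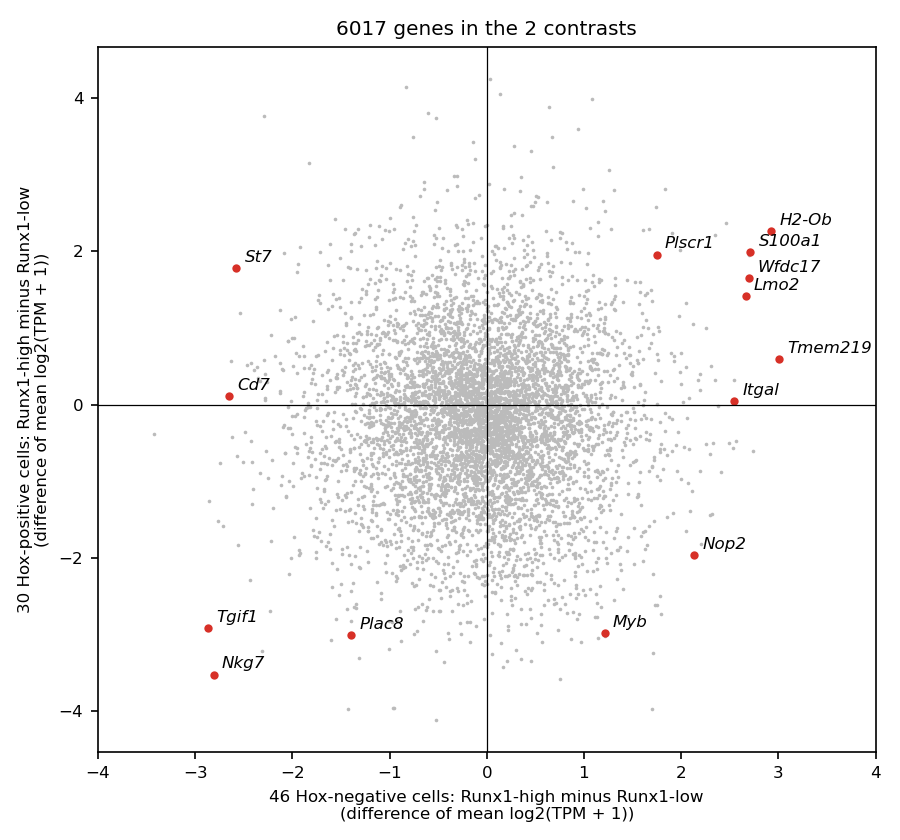
Each point is 1 of 6017 genes, with the difference of mean log2(TPM + 1) between Runx1-high and Runx1-low cells in 46 Hox-negative cells (horizontal) and 30 Hox-positive cells (vertical). The cloud has no visible slope; Nkg7, Tgif1, H2-Ob and S100a1 lie far out on the same side in both, and Myb and Nop2 on opposite sides.

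Genes of proliferation had unlike values in Hox-negative and Hox-positive cells. In Hox-negative cells the 27 S phase genes had a median difference of -0.09, with 2 higher by 1 log2 unit and 4 lower. The 15 genes of G2 and M phase had -0.47, with 0 higher and 2 lower. The 19 genes of ribosome biogenesis and Myc had 0.12, with 3 higher and 0 lower. The 3 were Nop2, a ribosomal RNA methyltransferase (16 and 10 cells at 10 TPM, difference 2.13), the nucleolar GTPase gene Gnl3 (21 and 17 cells, 1.80) and Bop1, which acts in large subunit maturation (14 and 8 cells, 1.52, but -0.25 within letters E to H). In Hox-positive cells the medians were -1.62, -1.71 and -1.73, and 26 of 27, 13 of 15 and 19 of 19 genes were on the lower side. Nop2 (-1.97), Gnl3 (-2.73) and Bop1 (-1.60) were among them. In Hox-negative cells 15 of 27, 10 of 15 and 8 of 19 were on the lower side. Runx1 thus ran against these lists among Hox-positive cells. Among Hox-negative cells the medians were smaller in size and of both signs, with G2 and M phase genes mostly on the lower side. The difference between the sets was not tested. Among Hox-positive cells the Runx1-high cells had a median of 4098 genes detected and the Runx1-low cells 4177, and ribosomal-protein genes took 6.60% and 7.78%; the part of these values in the result was not tested.

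**Figure D5:**
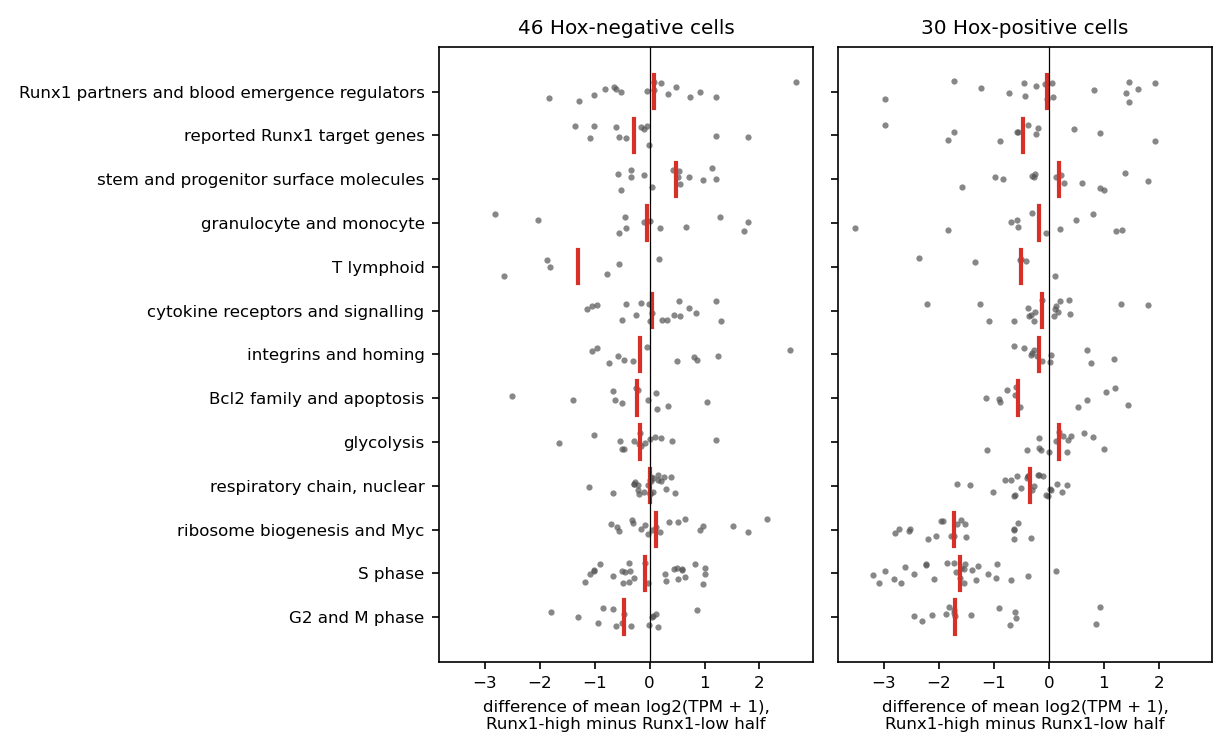
Each point is a tested gene of 1 of 13 lists, with its difference of mean log2(TPM + 1) between Runx1-high and Runx1-low cells, in 46 Hox-negative cells (left) and 30 Hox-positive cells (right); red bars are list medians. S phase, G2 and M phase and ribosome biogenesis have medians of -0.09, -0.47 and 0.12 on the left and below -1 on the right. The T lymphoid median on the left is -1.30.

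When the Hox-negative cells were cut into 3 ranges by Runx1, Lmo2 had mean log2(TPM + 1) of 1.90, 2.78 and 6.25, from the lowest to the highest. Nkg7 had 9.36, 9.58 and 5.22, Cd7 had 4.52, 3.69 and 0.99, and Tcf7 3.94, 3.62 and 0.78. The change in these 4 genes thus fell mostly between the middle and the highest Runx1 range. Asns, with 4.79, 2.94 and 0.98, and Csf2rb2, a beta chain of the interleukin 3 receptor, with 0.40, 1.09 and 2.50, changed in both steps.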

How the data were processed

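Per the labels' protocols, RNA of each sorted cell was amplified as cDNA (Discover-sc kit, Vazyme) and made into a library (TruePrep kit). The authors deposited 1 table of gene-level TPM (abundance scaled for gene length and library total) for 15192 genes and 76 cells. The submitters' processing notes name StringTie 1.3.4, HISAT2 2.1.0, bcl2fastq, SAMtools 0.1.19 and mm10, with no order of steps; the annotation is not given in the sources used here. TPM keeps no depth, which is unknown.

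Cells with Hoxa9 and Hoxa10 under 1 TPM were divided at their Runx1 median. For genes at 1 TPM or more in at least 12 of them, the difference of mean log2(TPM + 1), cells at 1 and 10 TPM and Spearman's rho with Runx1 were computed, with no test (Python 3.11.15, numpy 2.4.6, pandas 2.3.3, scipy 1.17.1). The procedure was tested on simulated data.

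The members and the 31 gene lists were chosen with earlier results of these data known. Named were the 10 highest and 10 lowest genes by difference with a rho of the same sign and at least 0.3 in size, and 5 and 5 such genes detected in at least 90% of the cells. Added were the 10 highest and 5 lowest by rho, and list members past 1 log2 unit or detected in most cells. Ribosomal-protein genes and predicted models were left out. Plac8, Prtn3 and the pairs of genes were chosen after values were seen. Of the 15192 symbols in the deposited table, 92.3% were RefSeq symbols (GRCm38.p6). Of 191 named genes, 143 had a promoter there and 23 held TGTGGT upstream.

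Alternatives were other pseudocounts, filters, limits on Hox and Runx1, scalings, 3 ranges of Runx1, title numbers and letters, and leaving out each cell. Cells with Runx1 of at least 10 TPM, and cells without Tcf7, were added after seeing the data. Sets of cells taken by Hox, Runx1, genes detected or title were divided again at their own Runx1 median. Leaving out each cell, or the cells with Tcf7, kept the groups of the main division.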

Additional observations from a re-analysis of the deposited data

How the results depend on the processing

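Counts of genes moved with the scale and with the number of cells. Genes higher by 1 log2 unit numbered 497; they were 912 with a pseudocount of 0.1, 84 with 10, 291 when detection in at least 23 cells was asked and 832 for the highest against the lowest of 3 Runx1 ranges. Within title numbers 2 to 6 and 7 to 11 they were 860 and 850, and within letters A to D and E to H 1051 and 782. Lower genes numbered 682; they were 1169, 153 and 395 under the first 3 of these settings, 1402 in numbers 7 to 11, and 1129 and 1196 by letters. Genes with a rho of 0.3 or more numbered 183, and 446, 557, 643 and 492 in the title ranges in the same order. Those at -0.3 or less numbered 168; they were 257 with no detection filter, 110 with 23 cells, and 469, 651, 519 and 531 in the title ranges. Under the settings added after seeing the data they were 326 with Runx1 of at least 10 TPM and 404 without Tcf7 cells. The title ranges hold 21 or 25 cells, and fewer cells widen both measures. Leaving out 1 cell at a time gave 444 to 571 and 624 to 756 genes past 1 log2 unit, and 160 to 205 and 143 to 195 past the rho limits.

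Of 66 named genes past 1 log2 unit, 15 stayed past it in the same direction under every setting that held them. Many of the 66 were named for the size of their difference in these cells. The share over all genes past 1 log2 unit was not computed, so this count is not set against a background. Among the 15 were Lmo2, S100a1, Wfdc17, Elmo1, Nkg7 and Cd7 under 19 settings, and H2-Ob and Pmaip1 under 18. H2-Ob and Pmaip1 did not enter the setting that asked detection in at least 23 cells. The settings of the detection filter change which genes are counted and leave the value of a gene as it was. Lmo2 ran from 1.23 to 4.46 and Nkg7 from -4.14 to -1.59. The sign turned in 13 genes. In numbers 2 to 6 Tgif1 was 0.11 and Meis1 0.25. In numbers 7 to 11 Cd81 was -0.37, Cd33 -0.0046, Hk1 -0.39 and Gfi1b 0.91. In letters A to D Ctsg was -0.22, Tcf7 0.14, Cd63 0.61 and Plac8 0.18, and in letters E to H Bop1 was -0.25 and Slc16a3 1.005. Cdkn1a was 0.15 with Runx1 of at least 10 TPM. Without Tcf7 cells Tcf7 was 0.038, Gfi1b 0.47 and the T lymphoid median 0.019; for Tcf7 the setting itself removes the carriers, and for the others the cause was not tested. Library depth is unknown, so a 0 cannot be split into absence and failed capture. No paired analysis was possible because each cell is a library of its own with no replicate partner.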
